A study of Mus musculus with 24 samples.

Results

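The glucocorticoid-responsive genes described here are 10 genes: Nr3c1, which encodes the glucocorticoid receptor, and the receptor targets Fkbp5, Tsc22d3, Cebpb, Cebpd, Glul, Zbtb16, Klf9, Ddit4 and Sgk1. They were chosen by symbol, as known targets in muscle plus the receptor, because several of them were higher in muscle without myostatin, so the differences between genotypes below describe the choice and carry no test. All 10 were among the 19937 genes measured, and the mean of every one of the 4 groups lay above the filter on low values for all 10. RNA of the plantaris, a hindlimb muscle that extends the ankle, was measured on 24 Affymetrix whole-transcript arrays, 1 per mouse.

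The mice were 3 months old and fell into 4 groups of 6 biological replicates: untreated wildtype, overloaded wildtype, untreated Mstn-/- and overloaded Mstn-/-. Mstn encodes myostatin, a secreted protein that restrains muscle growth, and the labels give the Mstn-/- genotype without the allele. For the overload, most of the gastrocnemius and the whole soleus were cut out in both legs under pentobarbitone anaesthesia, which leaves the plantaris to carry their work, and the plantaris of 1 side was measured. The untreated mice had neither anaesthesia nor an operation, so the effects of the load and of the surgery cannot be told apart. The sources used here do not give the length of the overload or the time of day of sampling.

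Glucocorticoids such as corticosterone, the main one of mice, enter cells and bind the receptor, which chaperones hold in the cytoplasm until the hormone arrives. The bound receptor moves to the nucleus and raises or lowers the transcription of its target genes. In skeletal muscle the hormone is known for favouring protein breakdown, restraining protein synthesis and supplying amino acids to the liver, and its secretion follows a daily rhythm and rises with stress.

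The receptor binds DNA as a pair, and its classical response element is an inverted repeat of AGAACA with 3 bases between the copies. Promoters of 7 of the 10 genes were matched in RefSeq (mouse build GRCm38.p6, 14 promoters), and the 250 bases before each start were searched on both strands. The full element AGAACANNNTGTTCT occurred in 1 of these 14 promoters, that of an Sgk1 transcript, and in 3 of 32851 promoters overall (0.00913%). A single copy, AGAACA or TGTTCT, occurred in 4 of the 14, all of Sgk1 or Tsc22d3, and in 16.1% of all promoters. Promoters of a gene are not independent, and by gene the single copy occurred in 2 of 7 and in 4912 of 27025 overall. The full element contains both single copies, so the counts overlap. Both promoters below are shown because they hold these letters and because Sgk1 and Tsc22d3 had the largest positive differences between the genotypes in overload response. The Sgk1 stretch lies at chr10:21993640-21993889 (plus strand) and the Tsc22d3 stretch at chrX:140600523-140600772 (minus strand, read 5′ to 3′ along the gene). Capitals mark the full element and the single copies.
Sgk1: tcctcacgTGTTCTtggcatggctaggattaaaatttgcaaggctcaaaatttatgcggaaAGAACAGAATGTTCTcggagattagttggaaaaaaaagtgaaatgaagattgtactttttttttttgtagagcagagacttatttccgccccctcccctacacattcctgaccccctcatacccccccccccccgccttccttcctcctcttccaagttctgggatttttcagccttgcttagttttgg
Tsc22d3: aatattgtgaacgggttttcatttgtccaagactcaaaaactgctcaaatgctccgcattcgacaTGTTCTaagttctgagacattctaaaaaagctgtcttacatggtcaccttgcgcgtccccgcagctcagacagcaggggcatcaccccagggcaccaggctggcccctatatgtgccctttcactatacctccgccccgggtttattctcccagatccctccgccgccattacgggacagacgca
The element of Sgk1, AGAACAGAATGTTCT, begins 189 bases before the start. These matches describe the letters in the window and not binding, which was not measured on these arrays.

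Array medians lay between 139 and 147 in intensity, and the number of arrays limits the precision. Mstn was lower on every untreated Mstn-/- array (log2 intensity 8.53 to 9.33) than on any untreated wildtype array (10.10 to 10.40), while the overloaded groups overlapped (7.87 to 8.66 and 8.19 to 8.63). All 10 muscle fibre markers were above the filter in every group. Their summed intensity was 116203 to 118381 in untreated wildtype, 86674 to 103083 in overloaded wildtype, 114384 to 121438 in untreated Mstn-/- and 109582 to 116875 in overloaded Mstn-/- muscle. The summed level of 10 macrophage markers was 2610 to 3562 in untreated and 13457 to 19265 in overloaded wildtype muscle, against 3810 to 4898 and 9223 to 17114 in Mstn-/- muscle, and all 10 were above the filter in every group. The sum of 8 fibroblast and fibro-adipogenic progenitor markers was 12394 to 16810 and 37607 to 44863 in untreated and overloaded wildtype muscle and 13645 to 17232 and 25979 to 31442 in Mstn-/- muscle, so the overloaded genotypes did not overlap. The sum of 8 endothelial markers was 5035 to 6226 and 6647 to 8291 in wildtype and 4678 to 5612 and 7145 to 8237 in Mstn-/- muscle. All markers of both lists were above the filter in every group. The part of these shifts in the results was not tested. In whole muscle, fewer cells of a type and less RNA per cell cannot be told apart.

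Across the 4 groups the genes followed a common outline. All 10 had their lowest mean in overloaded wildtype muscle, a count that was 6 when the arrays were shifted to the same level of the fibre markers, and 9 of 10 had their highest mean in untreated Mstn-/- muscle, Sgk1 being the exception (8 of 10 after that shift). For Nr3c1, Cebpb, Glul, Zbtb16 and Klf9 the order of the means ran from untreated Mstn-/- through untreated wildtype and overloaded Mstn-/- to overloaded wildtype. For Fkbp5, Tsc22d3, Cebpd and Ddit4 the overloaded Mstn-/- mean lay above that of untreated wildtype. Sgk1 was highest in overloaded Mstn-/- muscle, followed by untreated wildtype, untreated Mstn-/- and overloaded wildtype.

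**Figure D1:**
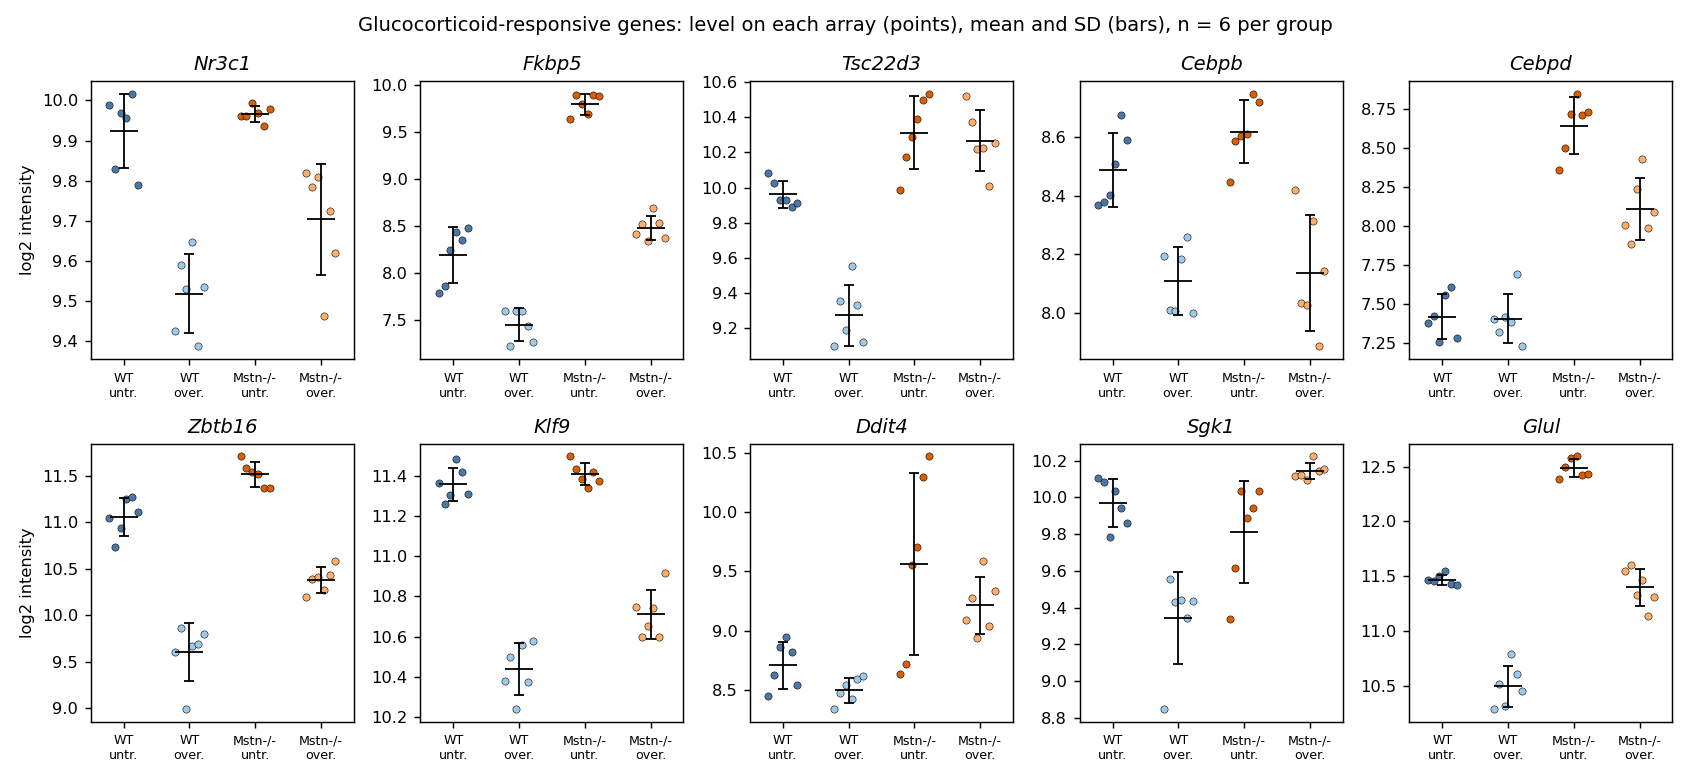
Log2 intensity (vertical axis) of the 10 genes on each of the 24 arrays, 1 panel per gene and 1 column per group of 6, with points for arrays and bars for the group mean and SD. Fkbp5 and Glul stand clear of their wildtype counterparts in both Mstn-/- groups, Ddit4 spreads from 8.63 to 10.47 in untreated Mstn-/- muscle, and Sgk1 is the gene whose overloaded Mstn-/- arrays lie above the untreated ones.

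The first comparison was overload against no overload in each genotype. It did not choose the genes, but its arrays, untreated and overloaded, are also in the comparisons of genotypes that did. Its counts and p-values are therefore not independent of the choice. In wildtype muscle 8 of the 10 genes fell under overload (limma, adjusted p under 0.05), where 30.3% of the 14499 genes tested rose and 35.6% fell, 65.9% in all. The groups did not overlap for those 8, against 21.1% of all genes that were lower without overlap, 21.8% that were higher and 43.0% in all. In Mstn-/- muscle 7 fell and 1, Sgk1, rose, against 33.5% and 27.1% of all genes, with 60.6% called in all. There 6 were lower without overlap and 1 higher, against 20.1% and 19.8% of all genes, 39.9% together. The median difference of the 10 genes on the log2 scale was -0.66 in wildtype and -0.51 in Mstn-/- muscle, and that of all genes was -0.06 in both. After a shift of the arrays to equal fibre markers the medians of the 10 genes were -0.34 and -0.44. That shift moved the median of all genes in wildtype to 0.27 and the share of called genes that were higher from 46.0% to 84.5% (from 44.7% to 58.6% in Mstn-/- muscle). Under it the mean differences of Cebpd and Ddit4 in wildtype and of Tsc22d3 in Mstn-/- muscle turned upward, to 0.31, 0.11 and 0.02, and the calls of Nr3c1 and Cebpb in wildtype were lost. The wildtype differences of Fkbp5, Tsc22d3, Klf9 and Sgk1 shrank to -0.42, -0.37, -0.60 and -0.31 and still passed the test.

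**Figure D2:**
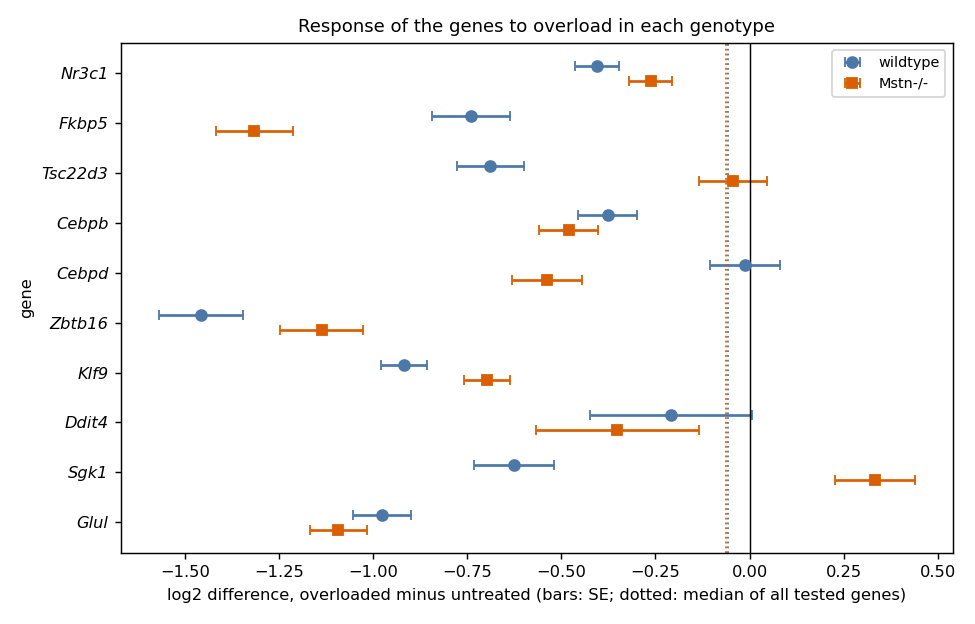
Log2 difference between overloaded and untreated muscle (horizontal axis) for each gene, with 1 point per genotype, bars for the standard error and dotted lines for the medians of all genes tested. Fkbp5, Glul, Zbtb16, Klf9, Cebpb and Nr3c1 lie below 0 in both genotypes. So do Ddit4, Tsc22d3 (-0.04 in Mstn-/- muscle) and Cebpd (-0.01 in wildtype). Sgk1 lies on opposite sides, at -0.63 in wildtype and 0.33 in Mstn-/- muscle. With the arrays shifted to equal fibre markers, Cebpd in wildtype moves from -0.01 to 0.31.

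The receptor itself fell in both genotypes. In untreated wildtype muscle Nr3c1 ran from 9.79 through a median of 9.96 to 10.02 (log2 intensity), and in overloaded wildtype muscle from 9.39 through 9.53 to 9.65. In Mstn-/- muscle it ran from 9.94 through 9.96 to 9.99 untreated and from 9.46 through 9.75 to 9.82 overloaded. Every overloaded array was thus below every untreated array of its genotype. The fall was 1.32-fold in wildtype (log2 difference -0.41 ± 0.06, SE, adjusted p = 8.7e-07) and, in Mstn-/- muscle, 1.20-fold (-0.26 ± 0.06, adjusted p = 0.00038). With the arrays shifted to equal fibre markers the wildtype difference was -0.09 (adjusted p = 0.23). Between genotypes the receptor differed by 0.04 untreated and 0.18 overloaded, with overlapping arrays in both cases, and the latter was -0.07 after that shift. None of the neighbouring groups in its order was separate in range.

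Fkbp5 encodes a cochaperone that the receptor induces and that in turn lowers the receptor's affinity for hormone, a short feedback loop. Its untreated wildtype arrays ran from 7.79 through a median of 8.30 to 8.48, and the overloaded ones from 7.22 through 7.51 to 7.60. In untreated Mstn-/- muscle the values were 9.63, 9.83 and 9.89, and in overloaded Mstn-/- muscle 8.34, 8.46 and 8.69. Untreated Mstn-/- muscle stood above all other arrays, and overloaded Mstn-/- and untreated wildtype muscle overlapped. Overload lowered Fkbp5 by 1.67-fold in wildtype (-0.74 ± 0.10, limma adjusted p = 5.1e-07) and by 2.49-fold in Mstn-/- muscle (-1.32 ± 0.10, adjusted p = 5.2e-11). The mean was 3.03-fold higher in Mstn-/- than in wildtype muscle without overload and 2.04-fold higher with it, without overlap in either, and the difference of the responses was -0.57 ± 0.15 (SE, no test).

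Tsc22d3 encodes GILZ, a leucine zipper protein through which glucocorticoids restrain inflammatory transcription factors. Untreated wildtype arrays gave 9.89, 9.93 and 10.09 as lowest, median and highest, and overloaded wildtype arrays 9.09, 9.26 and 9.55. Untreated Mstn-/- arrays gave 9.99, 10.34 and 10.54, and overloaded ones 10.01, 10.24 and 10.52. The wildtype groups were separate, and the Mstn-/- groups covered the same range. The fall in wildtype was 1.61-fold (-0.69 ± 0.09, limma adjusted p = 1.9e-07). In Mstn-/- muscle the difference was -0.04 ± 0.09 (adjusted p = 0.69), with a 95% confidence interval from -0.23 to 0.14. Overloaded Mstn-/- muscle was 1.99-fold above overloaded wildtype muscle without overlap, whereas untreated muscle of the genotypes differed by 0.35 on the log2 scale, with 5 of 6 Mstn-/- arrays above all wildtype arrays. The difference of the responses was 0.64 ± 0.13 (SE, no test), and 0.39 after the fibre marker shift.

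Cebpb and Cebpd encode leucine zipper transcription factors that glucocorticoids and cytokines induce. Cebpd in wildtype muscle ran from 7.26 through a median of 7.40 to 7.61 untreated and from 7.23 through 7.39 to 7.69 overloaded, so the groups overlapped fully. In Mstn-/- muscle it ran from 8.36 through 8.72 to 8.85 untreated and from 7.89 through 8.05 to 8.43 overloaded, with 5 of 6 overloaded arrays below every untreated one. All 12 Mstn-/- arrays lay above all 12 wildtype arrays. Cebpd fell 1.45-fold in Mstn-/- muscle (-0.54 ± 0.09, limma adjusted p = 1.8e-05) and differed by -0.01 ± 0.09 in wildtype (adjusted p = 0.91, 95% confidence interval -0.20 to 0.18). With the arrays shifted to equal fibre markers the wildtype difference was 0.31 (adjusted p = 0.0062). The genotypes differed 2.34-fold untreated and 1.63-fold overloaded, the latter a log2 difference of 0.70 that was 0.45 after the same shift. Cebpb, by contrast, had nearly the same means in both genotypes, 8.49 and 8.62 untreated and 8.11 and 8.14 overloaded. It fell by 0.38 ± 0.08 in wildtype (adjusted p = 0.00015) and by 0.48 ± 0.08 in Mstn-/- muscle (adjusted p = 8.9e-06), without overlap in either. After the fibre marker shift its wildtype difference was -0.06 (adjusted p = 0.52).

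Zbtb16 and Klf9 encode zinc finger transcription factors, and Zbtb16 had the largest overload response of the 10 genes in wildtype muscle. Zbtb16 ran from 10.73 through a median of 11.08 to 11.28 in untreated and from 8.99 through 9.68 to 9.86 in overloaded wildtype muscle. In Mstn-/- muscle it ran from 11.37 through 11.53 to 11.71 untreated and from 10.19 through 10.40 to 10.58 overloaded. No pair of neighbouring groups overlapped, and this held for none of the other 9 genes. The fall was 2.75-fold in wildtype (-1.46 ± 0.11, limma adjusted p = 1.4e-11) and, in Mstn-/- muscle, 2.20-fold (-1.14 ± 0.11, adjusted p = 2.8e-09). Klf9 means were 11.36 and 10.44 in untreated and overloaded wildtype muscle and 11.41 and 10.71 in Mstn-/- muscle. It fell 1.89-fold (-0.92 ± 0.06, adjusted p = 8.4e-13) and 1.62-fold (-0.70 ± 0.06, adjusted p = 3.2e-10), again without overlap. The genotypes differed by 0.46 untreated and 0.78 overloaded for Zbtb16, without overlap, and by 0.05 and 0.27 for Klf9, where the untreated groups overlapped and the latter value was 0.02 after the fibre marker shift.

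Glul encodes glutamine synthetase, the enzyme with which muscle makes glutamine for export. Its wildtype arrays ran from 11.42 through a median of 11.46 to 11.54 untreated and from 10.28 through 10.48 to 10.79 overloaded. The Mstn-/- arrays ran from 12.39 through 12.47 to 12.59 untreated and from 11.14 through 11.39 to 11.60 overloaded. Untreated Mstn-/- arrays were above all others, overloaded wildtype arrays below all others, and the remaining groups overlapped. Glul fell 1.97-fold in wildtype (-0.98 ± 0.08, limma adjusted p = 2e-11) and, in Mstn-/- muscle, 2.13-fold (-1.09 ± 0.08, adjusted p = 6.8e-12). It was 2.03-fold higher in Mstn-/- muscle untreated and 1.87-fold higher overloaded. The second probe set of Glul gave differences of -0.98 and -1.24 under overload and of 1.18 and 0.92 between genotypes.

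Ddit4 encodes REDD1, an inhibitor of the growth kinase complex mTORC1. In wildtype muscle it ran from 8.45 through a median of 8.72 to 8.95 untreated and from 8.34 through 8.51 to 8.61 overloaded. The 6 untreated Mstn-/- arrays lay at 8.63, 8.72, 9.56, 9.70, 10.30 and 10.47, and the overloaded ones between 8.94 and 9.59 around a median of 9.18. In the untreated Mstn-/- group 2 arrays were thus within the wildtype range and 4 were above it, and its SD of 0.77 compares with 0.10 to 0.24 in the other groups. Overload differences were -0.21 ± 0.22 in wildtype (limma adjusted p = 0.4, 95% confidence interval -0.65 to 0.24) and -0.35 ± 0.22 in Mstn-/- muscle (adjusted p = 0.16, -0.80 to 0.09). Without replicate 1 of untreated Mstn-/- muscle the latter was -0.54 (adjusted p = 0.021), and without replicate 2 it was -0.52 (adjusted p = 0.03). The mean was higher in Mstn-/- muscle by 0.86 untreated and by 0.71 overloaded, without overlap in the overloaded groups.

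Sgk1 encodes a kinase that promotes ion transport and opposes muscle wasting. Its wildtype arrays ran from 9.78 through a median of 9.99 to 10.10 untreated and from 8.85 through 9.43 to 9.55 overloaded. Its Mstn-/- arrays ran from 9.34 through 9.91 to 10.04 untreated and from 10.10 through 10.13 to 10.22 overloaded. Overloaded arrays were below all untreated ones in wildtype and above all untreated ones in Mstn-/- muscle. Sgk1 fell 1.54-fold in wildtype (-0.63 ± 0.11, limma adjusted p = 1.1e-05) and rose 1.26-fold in Mstn-/- muscle (0.33 ± 0.11, adjusted p = 0.0091). The rise was 0.24 (adjusted p = 0.033) without the lowest untreated Mstn-/- array. The genotypes differed by -0.16 untreated, with overlap, and by 0.80 overloaded (1.74-fold), without overlap. The difference of the responses, 0.96 ± 0.15 (SE, no test), was the largest positive one of the 10 genes.

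Side by side, the comparison of genotypes that chose the genes gave 9 positive and 1 negative difference in untreated muscle, with Fkbp5, Cebpd, Glul and Zbtb16 separate without overlap. Among all genes tested 6.53% were higher and 5.47% lower without overlap in untreated Mstn-/- muscle, 12.0% in all. In overloaded muscle all 10 differences were positive and 8 genes were higher without overlap, the exceptions being Nr3c1 and Cebpb, which had negative differences of -0.07 and -0.23 after the fibre marker shift. Among all genes 7.06% were higher and 8.46% lower without overlap there, 15.5% in all. The median over the 10 genes was 0.40 untreated and 0.75 overloaded, against -0.01 and -0.03 for all genes, and the latter median of the 10 genes was 0.49 after the fibre marker shift. The overload responses differed between the genotypes in the negative direction for 5 genes and in the positive direction for 5, with a median of 0.02. After that shift Nr3c1 and Klf9 also turned negative, at -0.11 and -0.03, which gave 7 negative and 3 positive differences with a median of -0.23.

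**Figure D3:**
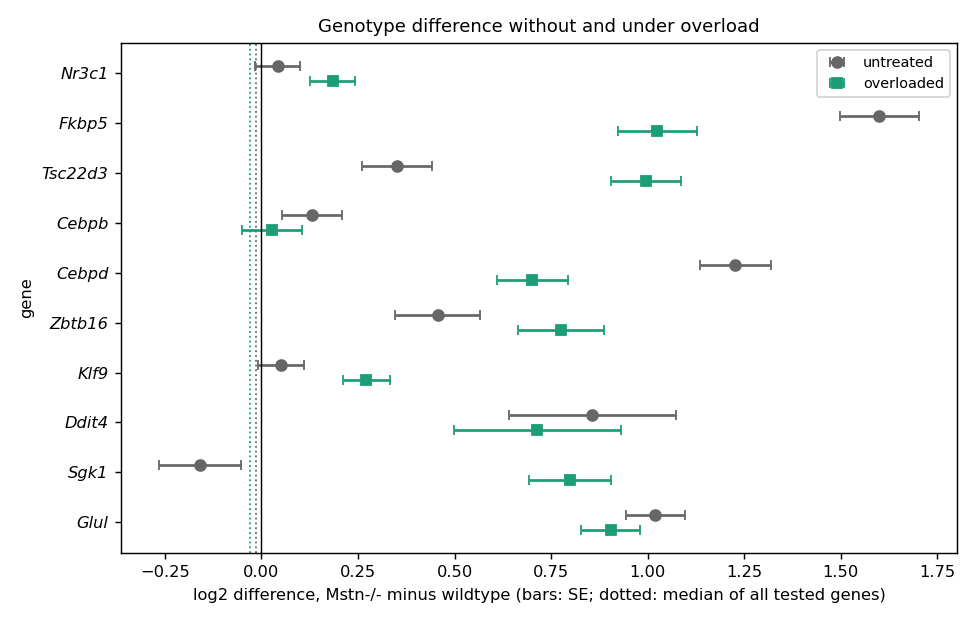
Log2 difference between Mstn-/- and wildtype muscle (horizontal axis) for each gene, with 1 point for untreated and 1 for overloaded muscle, bars for the standard error and dotted lines for the medians of all genes tested. Fkbp5 lies at 1.60 and 1.03, and Tsc22d3, Sgk1, Zbtb16, Klf9 and Nr3c1 lie further right in overloaded than in untreated muscle. Nr3c1 and Cebpb in overloaded muscle turn negative when arrays are shifted to equal fibre markers.

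Within groups the genes moved together only in part. Deviations of each array from its group mean were correlated over the 24 arrays, which share the same normalization, and the 45 pairs had a median r of 0.13, from -0.33 (Nr3c1 with Cebpd) to 0.67 (Zbtb16 with Klf9). 7 pairs were above 0.5 and 15 were negative. Besides Zbtb16 with Klf9, the highest were Tsc22d3 with Glul at 0.65, Ddit4 with Sgk1 at 0.60, Tsc22d3 with Sgk1 at 0.59 and Tsc22d3 with Ddit4 at 0.53. Several of these values were lower without 2 arrays. Replicates 1 and 2 of untreated Mstn-/- muscle had the lowest Ddit4, Sgk1, Tsc22d3 and Cebpd of their group, and without them these values became 0.15 for Ddit4 with Sgk1, 0.34 for Tsc22d3 with Sgk1 and 0.16 for Tsc22d3 with Ddit4 over 22 arrays. Zbtb16 with Klf9 was then 0.64 and Tsc22d3 with Glul 0.69. Without the whole untreated Mstn-/- group (18 arrays) Ddit4 with Sgk1 was 0.19, Tsc22d3 with Sgk1 0.37 and Tsc22d3 with Ddit4 -0.11. In that group the 6 arrays, taken from lowest to highest Ddit4, had Tsc22d3 at 9.99, 10.17, 10.29, 10.39, 10.50 and 10.54. The same replicates also had the lowest Per1 (9.20 and 9.15, against 9.52 to 9.74 on the other arrays) and the highest Arntl (9.26 and 9.36, against 8.95 to 9.17) of their group, both genes of the daily clock. The clock genes Dbp and Nr1d1 did not set these replicates apart. Their Dbp (8.33 and 8.36) lay within the range of the other arrays of the group (8.24 to 8.63). Nr1d1 was 11.71 and 11.67 on them, and 11.68 on replicate 6.

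**Figure D4:**
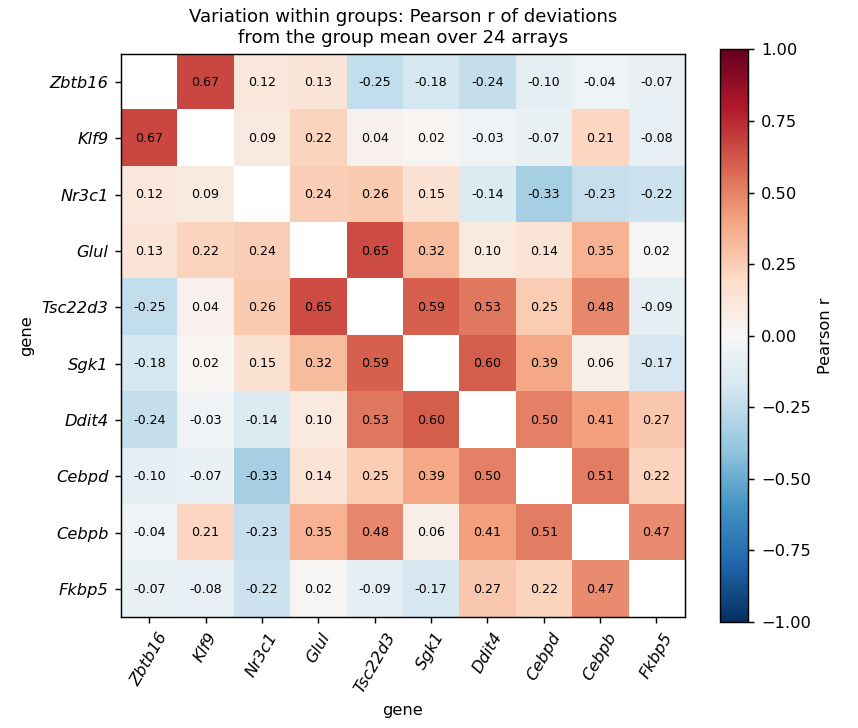
Pearson r between each pair of the 10 genes over 24 arrays, after subtracting each group's mean, with a colour scale for r and the value in each cell. The highest cells are Zbtb16 with Klf9 (0.67) and Tsc22d3 with Glul (0.65), and Nr3c1 with Cebpd is the lowest (-0.33).

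The genes whose deviations were most like those of 3 of the members, out of all genes tested, were given by the same measure over 24 arrays. For Nr3c1 they were Tfam (0.85), Golga7 (0.82) and Ssbp1 (0.80). For Fkbp5 they were Adamts4 (0.77), Slc5a7 and Cdca4 (both 0.74). For Tsc22d3 they were Preb (0.82), Zhx3 (0.80) and Necap1 (0.78). Each was picked as a highest value over all genes tested, which by itself favours a high r, and none was tested. Their likeness over the raw levels of all arrays differed in sign in part, with Fkbp5 and Adamts4 at -0.61 and Nr3c1 and Tfam at 0.94.

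Other genes of the pathway were taken from lists written by role, with earlier results of these data known. Their counts, and those of the lists further below, describe the lists and are no independent support. Of 58 tested, 9 rose and 31 fell under overload in wildtype muscle, and 13 rose and 27 fell in Mstn-/- muscle. In total, the 40 called in each genotype are near the shares of all genes, 65.9% and 60.6%. By direction, 30.3% of all genes rose and 35.6% fell in wildtype, and 27.1% rose and 33.5% fell in Mstn-/- muscle. Among the 58 the falls were thus above and the rises below the shares of all genes. The medians over the 58 were -0.19 and -0.13 on the log2 scale, closer to the -0.06 of all genes than those of the 10 members. Between genotypes 18 were higher and 9 lower in untreated Mstn-/- muscle, where 11.1% and 10.2% of all genes were (21.3% in all), and 25 were higher and 4 lower in overloaded muscle, where 17.5% and 19.0% of all genes were (36.5% in all). The response differed for 14 of the 58, positively for 8 and negatively for 6, against 8.92% and 8.44% of all genes (17.4% in all). Mstn, the gene that is knocked out, is on these lists and is counted among the 9 lower in untreated muscle and the 8 with a positive difference in response.

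Of the genes for activation, inactivation and transport of the hormone and for its second receptor, 6 were tested. In wildtype muscle 5 fell and 1 rose, and in Mstn-/- muscle 4 fell and 1 rose. Of all genes 35.6% fell and 30.3% rose in wildtype (65.9% in all), and 33.5% and 27.1% in Mstn-/- muscle (60.6% in all). With 6 genes the counts say little against these shares. Hsd11b1, which regenerates active glucocorticoid inside cells, fell by 0.30 ± 0.06 on the log2 scale in wildtype (limma adjusted p = 7.6e-05) and by 0.51 ± 0.06 in Mstn-/- muscle (adjusted p = 4.3e-08). It was 1.22-fold higher in untreated Mstn-/- than in untreated wildtype muscle (adjusted p = 0.00097). Hsd11b2, which inactivates the hormone, was 1.40-fold up after overload of wildtype muscle (adjusted p = 1.4e-05) and 1.26-fold up after overload of Mstn-/- muscle (adjusted p = 0.0015). Nr3c2, the mineralocorticoid receptor, which also binds corticosterone, fell 1.72-fold in wildtype (adjusted p = 7.8e-09), and its response differed between genotypes by 0.75 ± 0.12 (adjusted p = 0.00012). The drug and steroid exporter Abcb1b fell in both, 1.45-fold (adjusted p = 1.4e-08) and 1.76-fold (adjusted p = 1.5e-11).

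The receptor is held by chaperones and acts through coregulators. Of 11 chaperone genes 2 rose and 5 fell in wildtype, and 3 rose and 5 fell in Mstn-/- muscle. In total these counts, and those of the coregulators below, do not stand out from the shares of all genes called, 65.9% and 60.6%. By direction, 30.3% of all genes rose and 35.6% fell in wildtype, and 27.1% rose and 33.5% fell in Mstn-/- muscle. The falls were above those shares in both lists, with few genes in each. Fkbp4, the cochaperone that competes with the Fkbp5 product and promotes receptor transport, fell 1.61-fold (limma adjusted p = 4.7e-11) and, in the Mstn-/- mice, 1.43-fold (adjusted p = 1.4e-08), the same direction as Fkbp5. Hsp90aa1, the inducible form of the HSP90 chaperone, rose 1.44-fold (adjusted p = 5.3e-05) and 1.30-fold (adjusted p = 0.0024). Of 13 coregulators 7 fell and 0 rose in wildtype, and 6 fell and 1 rose in Mstn-/- muscle. The corepressor subunit Hdac3 was down 1.36-fold (limma adjusted p = 6e-08) and 1.30-fold (adjusted p = 1.5e-06).

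Further targets of the receptor were mixed. Of 28 tested, 6 rose and 14 fell in wildtype muscle, and 8 rose and 12 fell in Mstn-/- muscle. The totals were again near the 65.9% and 60.6% of all genes called. By direction, 30.3% of all genes rose and 35.6% fell in wildtype, and 27.1% rose and 33.5% fell in Mstn-/- muscle. Klf15, a transcription factor of amino acid breakdown, fell 2.22-fold in wildtype (limma adjusted p = 1.7e-13), and Bcat2, the mitochondrial branched-chain aminotransferase, fell 1.88-fold (adjusted p = 1.4e-12) and 1.93-fold (adjusted p = 2.1e-12). Anxa1, an anti-inflammatory target also made by immune cells, rose 3.90-fold (adjusted p = 4.2e-12) and, in the Mstn-/- mice, 2.93-fold (adjusted p = 7.4e-10), in muscle with the macrophage marker sums given above, whose part in it was not tested. In untreated muscle Pik3r1, a regulatory subunit of PI3 kinase, was 2.45-fold higher in Mstn-/- mice (adjusted p = 2.2e-12) and Bcat2 1.54-fold higher (adjusted p = 4e-08), whereas Angptl4, a lipoprotein lipase inhibitor, was 1.65-fold lower (adjusted p = 1.5e-06).

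Clock genes are given beside these results because hormone secretion and several of the targets follow the time of day. Arntl, an activator of the clock, had mean log2 intensities of 8.25 and 8.28 in untreated and overloaded wildtype muscle and of 9.14 and 7.37 in Mstn-/- muscle. Dbp, a clock output factor, ran from 9.65 to 9.85 and from 8.94 to 9.31 in untreated and overloaded wildtype muscle and from 8.24 to 8.63 and from 9.80 to 10.18 in Mstn-/- muscle. Per1, a clock repressor and receptor target, had means of 9.93 and 9.62 in wildtype and of 9.45 and 10.19 in Mstn-/- muscle. Nr1d1 fell in both genotypes, from 11.99 to 11.25 and from 11.73 to 11.19 (limma adjusted p = 4.9e-10 and 2e-07). For Arntl and Dbp the means of the 2 Mstn-/- groups lay on opposite sides of both wildtype means. Of 17 clock genes tested 13 fell under overload in wildtype muscle, and 6 rose and 7 fell in Mstn-/- muscle, where 35.6% of all genes fell in wildtype and 27.1% rose and 33.5% fell in Mstn-/- muscle. The response of 12 of the 17 differed between the genotypes, against 17.4% of all genes. The part of these levels in the results on the 10 genes was not tested.

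**Figure D5:**
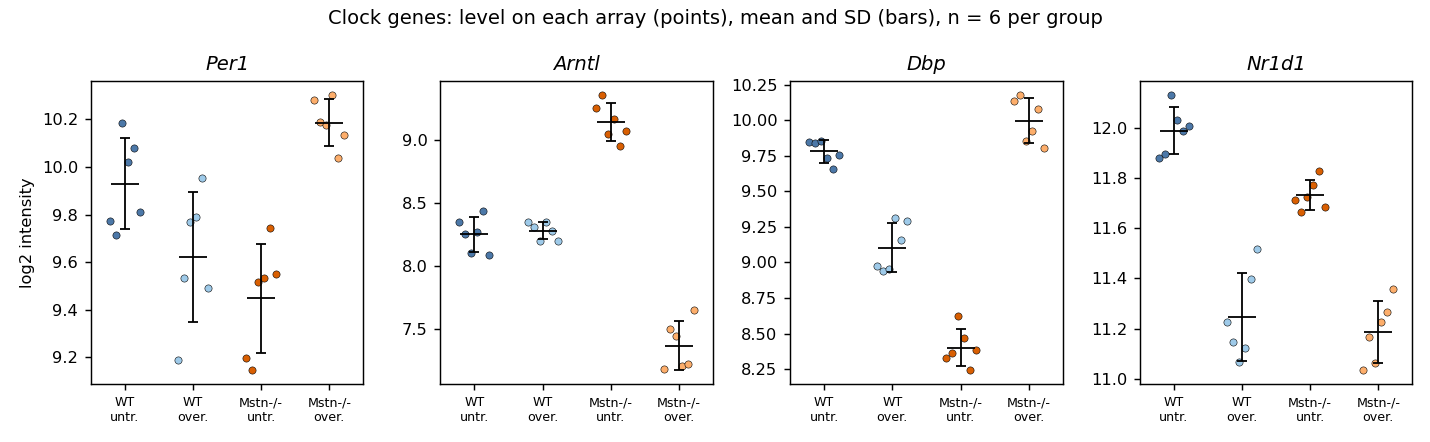
Log2 intensity (vertical axis) of Per1, Arntl, Dbp and Nr1d1 on each of the 24 arrays, 1 panel per gene and 1 column per group of 6, with points for arrays and bars for the group mean and SD. Arntl is highest in untreated and lowest in overloaded Mstn-/- muscle, and Dbp is lowest in untreated and highest in overloaded Mstn-/- muscle.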

How the data were processed

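Per the submitters' processing notes, the authors made the deposited intensity per probe set with RMA, which corrects background, normalizes across arrays and summarises probes. No version is given. The deposited intensity values (4.72 to 25588.9) are on a linear scale, and log2 was taken without a pseudocount. Of 34760 probe sets, 21640 had 1 gene symbol, 1321 several and 11799 none, and only the first were used. The probe set with the highest mean stood for a gene (19937 genes). A gene was tested if at least 1 group mean was above the 30th percentile (intensity 98.9), which left 14499. limma 3.58.1 in R 4.3.3 fitted 1 mean per group to 24 arrays (20 residual degrees of freedom), with eBayes and Benjamini-Hochberg adjustment over all genes tested in a comparison and a threshold of 0.05. The script was tested on simulated data. Promoter sequences and gene names came from RefSeq tables of GRCm38.p6. The members and gene lists were chosen with earlier results of these data known. Named beside the members were up to 4 list genes per comparison with the smallest adjusted p (2 higher, 2 lower), 4 clock genes and the 3 genes most like Fkbp5, Tsc22d3 and Nr3c1. Hsd11b1 in wildtype and Klf15 in Mstn-/- muscle were named after their values were seen. Alternatives were another quantile normalization, a median shift, no filter and a stricter one, the mean of all probe sets, a trended robust variance, array weights, a replicate block, leaving out each array, and, added after seeing the data, a shift to equal fibre markers.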

Additional observations from a re-analysis of the deposited data

Results flagged for a closer look

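Of the 40 sets of 6 arrays (10 genes in 4 groups), 2 held an array far from the others, and chance gives about 1 in 20. For Zbtb16, replicate 3 of overloaded wildtype muscle lay at 8.99, with the next array at 9.60, and without it the overload difference was -1.33. For Sgk1, replicate 1 of overloaded wildtype muscle lay at 8.85, with the next at 9.34, and without it the difference was -0.53.

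Among genes named from the lists, the overload response differed between the genotypes (limma, on the log2 scale, Mstn-/- minus wildtype) by 0.84 for Irs2, an insulin receptor substrate (adjusted p = 9.7e-06), and by 1.05 for Per1 (adjusted p = 5.3e-05). It differed by -1.24 for Pik3r1 (adjusted p = 3.5e-09), which was 1.29 higher in untreated Mstn-/- muscle, and by -0.43 for Eif4ebp1, a repressor of translation (adjusted p = 0.00026). The clock genes Arntl and Dbp differed by -1.80 (adjusted p = 5.4e-11) and 2.27 (adjusted p = 2.4e-13).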

How the results depend on the processing

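Of 180 tested differences of the 10 genes under 9 other settings, 176 kept their side of the threshold. So did 478 of 480 when 1 array was left out. No difference called in the main fit changed direction, but some that were not called did. Under the shift to equal fibre markers these included Ddit4 in wildtype (0.11) and Tsc22d3 in Mstn-/- muscle (0.02). With 1 array left out, Cebpd in wildtype reached 0.03. The exceptions among the 180 were Ddit4 in Mstn-/- muscle with array weights (-0.55, limma adjusted p = 0.032) and 3 wildtype differences under the shift to equal fibre markers, Cebpd at 0.31, Nr3c1 at -0.09 and Cebpb at -0.06. That shift, chosen after seeing the data, also moved the median genotype difference in overloaded muscle to 0.49 and the median difference of the responses to -0.23. With it 11537 genes (5293 otherwise) were called between genotypes under overload, 6.18% of them higher (48.0% otherwise), and 8834 (2516 otherwise) for the difference of the responses, 4.94% of them in the positive direction (51.4% otherwise). Of the other pathway genes 34 were then called for that difference (14 otherwise). The fall in the fibre markers on overloaded wildtype arrays sets the size of this shift. That fall was uneven and lay mainly in Myh4 (mean 13.47 to 12.39), Actn3 (13.46 to 12.68) and Pvalb (13.52 to 12.71). Acta1, Myh1, Mb and Des did not fall, so the shift does not stand for fibre content as a whole. Leaving out 1 array gave 8 genes called in wildtype each time and 8 to 9 in Mstn-/- muscle, medians between genotypes of 0.38 to 0.42 untreated and 0.70 to 0.78 overloaded, and 9 or 10 genes lowest in overloaded wildtype muscle. With the replicate number as a block, 8 and 8 of the genes were called and 9512 and 8688 of all genes (9560 and 8789 without), and no call of the 10 changed. The labels do not say that equal numbers pair the samples. Of 36 same-number pairs across groups, 9 had a correlation of deviations above 0.1 and 4 matched best. These correlations ran from -0.41 to 0.36 (median 0.02) and cannot settle whether some numbers share a batch. The arrays give no read depth, and 6 per group gave a median standard error of 0.067.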

Other observations

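Immediate early genes, which answer stress, load and handling within minutes to hours, were a further group. Of 17 tested, 14 rose and 1 fell under overload in wildtype muscle, and 13 rose in Mstn-/- muscle, where 30.3% and 27.1% of all genes rose. Fosl2, an AP-1 subunit, rose 1.62-fold in wildtype (limma adjusted p = 8.7e-07), and its rise in Mstn-/- muscle was 1.75-fold (adjusted p = 1.4e-07). Nr4a1, an orphan nuclear receptor, fell 1.95-fold in wildtype (adjusted p = 4.2e-06), and its response differed between the genotypes by 1.42 on the log2 scale (adjusted p = 7e-05). Its relative Nr4a2 was 2.81-fold lower in untreated Mstn-/- than in untreated wildtype muscle (adjusted p = 9.6e-07) and rose 3.42-fold under overload in Mstn-/- muscle (adjusted p = 4.8e-09).

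By the within-group measure over 24 arrays, the gene most like Ddit4 was Arrdc2 (0.82), picked as the highest value over all genes tested. Arrdc2 is an arrestin-domain gene on the list of further receptor targets, named after its value was seen. Like Ddit4, it spread most in untreated Mstn-/- muscle, from 8.98 to 9.90 (SD 0.37, against 0.13 to 0.19 in the other groups). The r without that group was not computed. Arrdc2 fell 2.77-fold under overload in wildtype (limma adjusted p = 1.1e-10), and its fall in Mstn-/- muscle was 2.07-fold (adjusted p = 8.4e-08).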
